A study of Mus musculus with 65 samples.

Results

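The retinas of 7 mice challenged with lipopolysaccharide (LPS) were compared, 4 with repopulated microglia (LPS_PLX) and 3 with resident microglia (LPS_CD), out of 65 mice in the series. The mice of each group were taken by their sample descriptions, and no measured value set which mice entered. The part of the series to compare and the gene lists were chosen with earlier results of these data known. All mice were adult wild-type C57BL/6J animals. LPS_CD mice received vehicle and LPS. LPS_PLX mice are labelled with PLX5622 and LPS, and the study describes them as retinas in which microglia had been depleted by the PLX5622 diet and had then returned before the challenge. The interval between depletion and challenge and the interval between LPS and tissue collection are not given in the sources used here. The unchallenged references were RP2M mice, whose microglia had repopulated for 2 months (n = 4), and control diet mice (CD) with the same title suffix as the challenged mice (n = 2). Of these CD mice, CD_2M carries a 2-month label as RP2M does. CD_1 carries none, so its match in time to RP2M is not given, and its title number begins with 2. The question put by the study was whether returned microglia respond to inflammation as resident ones do.

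Microglia are the tissue macrophages of the retina and depend on signalling through the CSF1 receptor, which PLX5622 inhibits. When the drug is withdrawn, the retina is filled again by new microglia. LPS, a component of the outer membrane of Gram-negative bacteria, is sensed through Toll-like receptor 4 and drives NF-kB, and the cytokines that follow act through STAT3 on glia and vessels. Saa3 (serum amyloid A3), Lcn2 (lipocalin 2, which binds bacterial siderophores) and Serpina3n (an acute-phase protease inhibitor made by reactive astrocytes and Mueller glia) are genes of this acute-phase programme and served as the measure of how strongly each retina had responded.

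Read counts per gene from whole-retina RNA were used. The total count ranged from 7457860 to 7837824 in the challenged mice, so that a count of 3, taken as the floor, was worth 0.383 to 0.402 CPM (read counts scaled to a common library size), a floor that covers counting error only. As markers of the labelled tissue, 16 rod genes summed to 59600 to 72500 CPM and 14 cone genes to 2210 to 2420 CPM in the 7 mice. In a principal component analysis of the 12434 best-counted genes, along the axis that carried 51.8% of the variance, LPS_CD_3 lay at 32.1 and LPS_CD_2 at 12.3, whereas LPS_CD_1 lay at -12.4 and the LPS_PLX mice between -15 and 3.02. LPS_CD_2 and LPS_CD_3 thus stood apart from LPS_CD_1 on the main axis of variation. The sample titles also carry numbers that begin with 0 or 1, whose meaning the labels do not give. LPS_CD_1, LPS_PLX_2 and LPS_PLX_3 have numbers beginning with 1 and the other 4 mice numbers beginning with 0.

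Saa3 (chr7:46711998-46715700, GRCm38) was counted at 3.06, 9.91 and 16.5 CPM in LPS_CD_1 to LPS_CD_3 and at 6.33, 8.96, 13.9 and 1.45 CPM in LPS_PLX_1 to LPS_PLX_4. The unchallenged mice had 0 to 0.273 CPM, below the floor. Lcn2 (chr2:32384633-32388252) was counted at 7.31, 49.3 and 107 CPM in LPS_CD and at 19.7, 69.4, 66 and 6.2 CPM in LPS_PLX, against 2.05 to 4.59 CPM without LPS. Both genes were lowest in LPS_PLX_4 and highest in LPS_CD_3, and the groups overlapped along most of their range. Serpina3n (chr12:104406729-104414329) gave 10.9, 37.5 and 177 CPM in LPS_CD and 23.3, 72, 57 and 6.06 CPM in LPS_PLX.

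Bases upstream of these genes are shown for Saa3 and Serpina3n, because they served as measures of the response. The sequences are RefSeq promoters on GRCm38.p6 read 5' to 3', Saa3 on the minus strand (chr7:46715701-46715926) and Serpina3n on the plus strand (chr12:104406458-104406707). Serpina3n is shown up to the RefSeq start, which lies some bases before the GENCODE start. Saa3 was cut at the GENCODE start, before the RefSeq start, and so holds 226 bases rather than 250. Capitals mark matches to the C/EBP motif TTNCNNAA on either strand.
Saa3: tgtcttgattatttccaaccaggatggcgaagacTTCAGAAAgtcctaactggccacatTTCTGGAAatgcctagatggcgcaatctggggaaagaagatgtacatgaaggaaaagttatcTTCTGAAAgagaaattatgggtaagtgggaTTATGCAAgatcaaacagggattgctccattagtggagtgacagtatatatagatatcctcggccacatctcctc
Serpina3n: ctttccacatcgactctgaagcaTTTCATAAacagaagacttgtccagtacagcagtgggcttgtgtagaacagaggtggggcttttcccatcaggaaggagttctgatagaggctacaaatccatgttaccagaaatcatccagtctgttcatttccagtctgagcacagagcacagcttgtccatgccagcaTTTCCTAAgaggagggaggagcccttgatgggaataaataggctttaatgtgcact
The C/EBP letters occurred at 4 places upstream of Saa3 and at 2 upstream of Serpina3n, while 36.8% of all 32817 promoter windows of 250 bases held at least 1. Neither stretch held the STAT letters TTCNNNGAA (7.01% of windows) or the NF-kB consensus (7.25% of windows). C/EBP proteins are transcription factors of the acute-phase response, and a match of letters is a description of the sequence alone.

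The 3 genes were joined in a response index, the mean of their log2(CPM + 1). In rising order the index was 2.32 in LPS_PLX_4, 2.88 in LPS_CD_1, 3.95 in LPS_PLX_1, 4.79 in LPS_CD_2, 5.22 in LPS_PLX_2, 5.27 in LPS_PLX_3 and 6.12 in LPS_CD_3. Mice of the groups alternated along this order, and every challenged mouse lay above the unchallenged ones, which ranged from 1.17 to 1.59 in RP2M and from 1.34 to 1.48 in CD. The mean was 4.60 ± 1.63 (SD, n = 3) in LPS_CD and 4.19 ± 1.39 (SD, n = 4) in LPS_PLX. The difference of -0.41 was smaller than either SD (two-sided exact permutation test over 35 splits, p = 0.771, the smallest possible p being 0.0286). None of the index genes passed in edgeR's quasi-likelihood test of LPS_PLX against LPS_CD, where the log2 fold change was -0.36 ± 0.53 (SE) for Saa3, -0.43 ± 0.68 for Lcn2 and -0.93 ± 0.72 for Serpina3n, with FDR between 0.699 and 0.857.

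**Figure D1:**
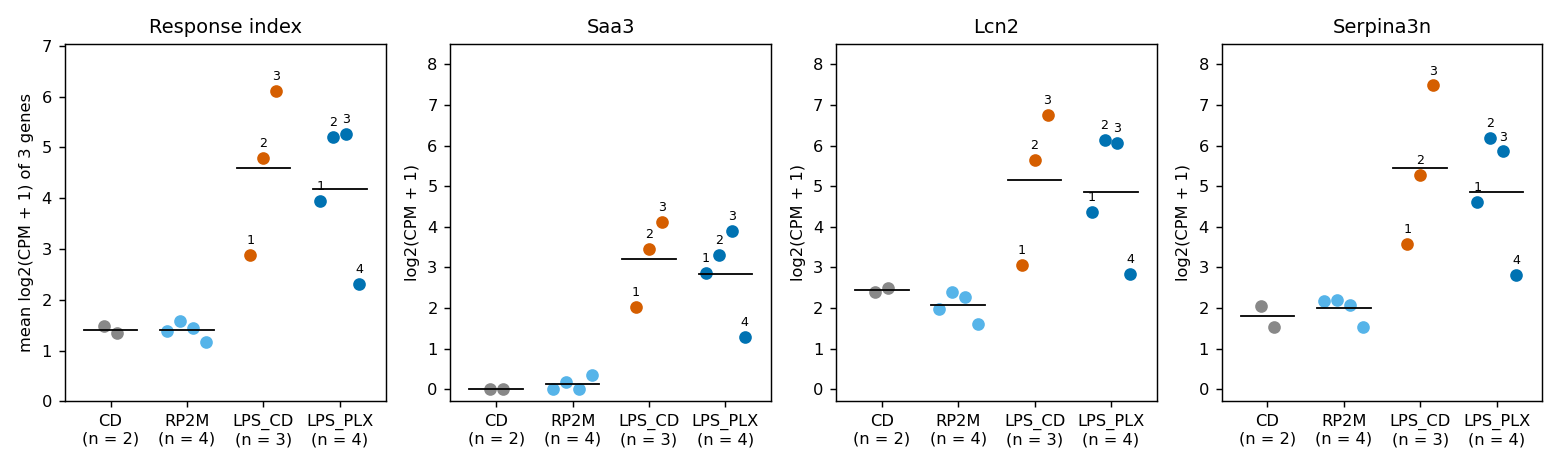
Response index (mean log2(CPM + 1) of Saa3, Lcn2 and Serpina3n) and log2(CPM + 1) of each gene, with 1 point per mouse, the replicate number beside challenged mice and the group mean as a line. LPS_CD spans 2.88 to 6.12 and LPS_PLX 2.32 to 5.27, and no unchallenged mouse exceeds 1.59.

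The index ran in opposite directions between the title number series. Among mice with numbers beginning with 0, both LPS_PLX mice (mean 3.13) lay below both LPS_CD mice (mean 5.45). Among those beginning with 1, both LPS_PLX mice (mean 5.24) lay above the single LPS_CD mouse (2.88). Within each number series, the group and the strength of response thus cannot be told apart. An edgeR interaction of group with number series called no gene at FDR under 0.05 (smallest FDR 0.307), while 3057 of 24500 genes (12.5%) passed 0.05 before adjustment (6.22% in one direction and 6.26% in the other).

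LPS_PLX against LPS_CD gave no differentially expressed gene (DEG, FDR under 0.01 and absolute log2 fold change above 1) among 24500 genes tested by edgeR's quasi-likelihood test. No gene reached an FDR under 0.05 either, the smallest FDR being 0.617, and DESeq2 and edgeR's likelihood ratio test also called 0 genes. Before adjustment 1973 genes (8.05%) had a p under 0.05, 979 higher (4%) and 994 lower (4.06%) in LPS_PLX. The 10 lowest p-values among lower genes belonged to Gpr62, Plk5, Drd4, Gtf2ird2, Slc23a1, Noxo1, Glp2r, Gm12689, Ccdc84 and Socs2, and among higher genes to Rgs20, Bbs12, Gm6277, Acyp1, Dnaic1, Gm37694, Ccnd1, Bhlhb9, Gm11337 and Slc22a8. None of these 20 was called.

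Gpr62 (chr9:106463962-106465938), an orphan G protein-coupled receptor, had 82.4, 80.0 and 97.2 CPM in LPS_CD and 66.1, 67.6, 59.8 and 62.6 CPM in LPS_PLX. Its groups did not overlap (3% of all genes had LPS_PLX wholly below LPS_CD and 3.42% wholly above), and the log2 fold change was -0.43 ± 0.09 (unadjusted p = 0.000355). Plk5, a polo-like kinase of non-dividing cells, stood at 344, 478 and 634 CPM in LPS_CD and at 279 to 315 CPM in LPS_PLX. Drd4, the dopamine receptor of photoreceptors, stood at 227, 394 and 388 CPM in LPS_CD and at 186 to 231 CPM in LPS_PLX. For both, LPS_CD_1 lay close to the LPS_PLX mice and LPS_CD_2 and LPS_CD_3 lay far above them. The same order was steeper in Glp2r, the receptor of glucagon-like peptide 2, with 113, 602 and 1040 CPM in LPS_CD and 136 to 196 CPM in LPS_PLX. The annotated spans of Glp2r (chr11:67661502-67771153) and Gas7 (chr11:67455437-67688990), which went opposite ways, overlap, and whether strand was used in counting is not given in the sources used here. Glp2r in the unchallenged mice, at 265 to 349 CPM, was above LPS_CD_1 and every LPS_PLX mouse and below the other LPS_CD mice. Socs2, a feedback inhibitor of cytokine receptors that signal through JAK and STAT, had 15.3, 17.9 and 21.6 CPM in LPS_CD and 11.7 to 12.5 CPM in LPS_PLX, and the unchallenged mice had 11.0 to 13.4 CPM. Among higher genes, Rgs20, a regulator of G protein signalling, had 79.6, 68.6 and 70.1 CPM in LPS_CD and 94.0, 105, 96.0 and 91.0 CPM in LPS_PLX. Ccnd1 (cyclin D1) had 31.9, 22.2 and 20.8 CPM against 34.4 to 41.1 CPM. Bbs12, a chaperonin-like protein of primary cilia, had 18.5, 13.4 and 13.4 CPM against 21.3 to 26.7 CPM.

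The number of calls depended on 1 mouse and on the form of the fit. With no filter on low counts 11 genes passed an FDR under 0.05, and in 1 fit together with RP2M and CD 21 did, with 1 DEG in either. Without LPS_CD_1, which left LPS_CD_2 and LPS_CD_3 against 4 LPS_PLX mice, 843 of 26366 genes (3.2%) passed an FDR under 0.05, 447 higher (1.7%) and 396 lower (1.5%), and 86 were DEGs. Leaving out any one of the other mice gave 0 genes. On the main axis of variation LPS_CD_1 lay within the range of the LPS_PLX mice. Calls made without it, here and below, show how far the result rests on that mouse and are no support for a group difference. Before adjustment, genes with a p under 0.05 ranged from 911 of 26186 without LPS_CD_3 to 4160 of 26366 without LPS_CD_1. List counts below with single mice left out are to be read beside this range. In the fit without LPS_CD_1, Glp2r had a log2 fold change of -2.37 ± 0.16 (FDR = 7.41e-06), Drd4 of -0.93 ± 0.09 (FDR = 0.00017), Fabp4, a fatty acid binding protein, of -1.76 ± 0.19 (FDR = 0.000413) and Katnal2, a katanin subunit, of 2.83 ± 0.26 (FDR = 0.000127). Stat3, the transcription factor of the acute-phase response, had -1.20 ± 0.22 (FDR = 0.009), and its feedback inhibitor Socs3 had -1.28 ± 0.32 (FDR = 0.0411). The metallothioneins Mt1 and Mt2 had -1.13 ± 0.17 (FDR = 0.00407) and -1.26 ± 0.26 (FDR = 0.0176). Both remaining LPS_CD mice have title numbers beginning with 0, as have LPS_PLX_1 and LPS_PLX_4. Their indices of 4.79 and 6.12 lie on either side of those of LPS_PLX_2 and LPS_PLX_3, at 5.22 and 5.27.

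**Figure D2:**
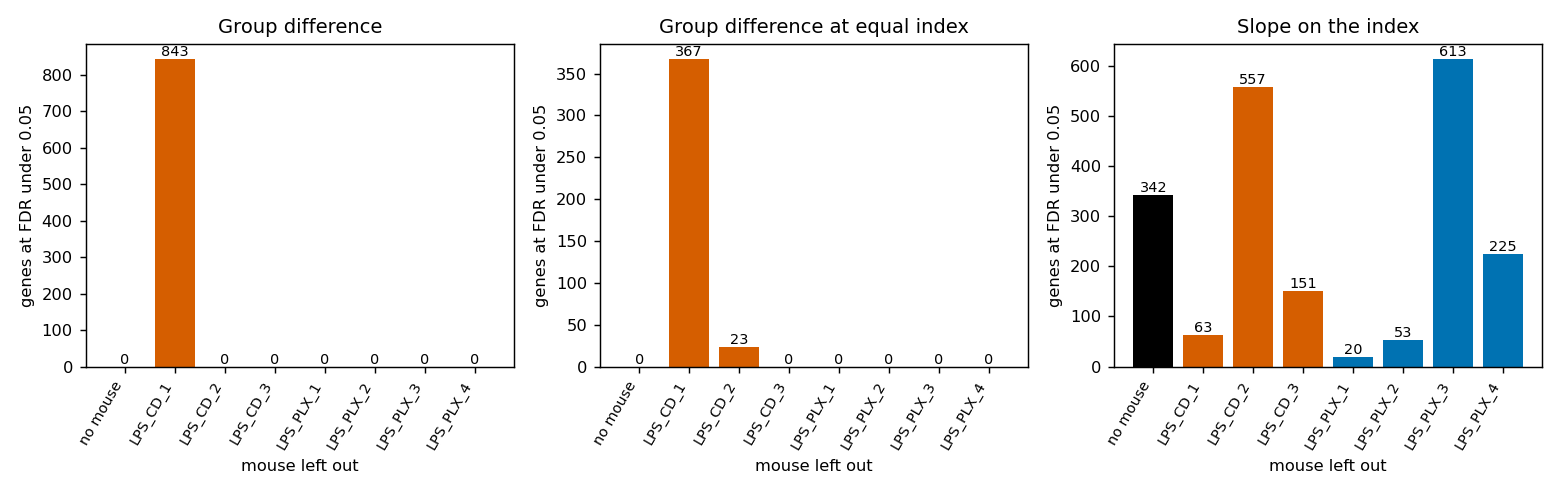
Number of genes at FDR under 0.05 in edgeR with all 7 mice (black) and without the mouse named on the x axis (orange for LPS_CD, blue for LPS_PLX), for the group difference, the group difference at equal index and the slope on the index. The group difference goes from 0 to 843 genes only when LPS_CD_1 is left out, and the slope count ranges from 20 to 613.

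The response index was then fitted together with the group. A total of 342 of 24500 genes (1.4%) had a slope on the index at FDR under 0.05 with the group held constant, 227 rising (0.927%) and 115 falling (0.469%). Before adjustment, 12.7% of genes had a p under 0.05 for the slope, 6.76% rising and 5.92% falling. The 342 genes include the 3 index genes, which define the scale and are given only as a description. Leaving out single mice moved this number between 20 (without LPS_PLX_1) and 613 (without LPS_PLX_3), with 63 genes without LPS_CD_1, 557 without LPS_CD_2, 151 without LPS_CD_3, 53 without LPS_PLX_2 and 225 without LPS_PLX_4. Which genes are called at this threshold therefore depends on single mice.

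Beyond the index genes, the rising genes of smallest p were Chil1, C4b, Serping1, A2m, C3, Clu and Selenbp1. Chil1, a chitinase-like protein secreted by reactive astrocytes, rose by 0.82 ± 0.05 log2 units per unit of index (FDR = 4.71e-08), with 14.5, 42.6 and 74.0 CPM in LPS_CD and 26.3, 58.2, 72.6 and 10.7 CPM in LPS_PLX. C4b, complement component 4, rose by 0.73 ± 0.05 (FDR = 7.01e-07) and stood at 9.30, 17.9 and 40.1 CPM in LPS_CD and 14.7, 33.3, 33.7 and 6.72 CPM in LPS_PLX. A2m, the protease inhibitor alpha-2-macroglobulin, rose by 0.80 ± 0.08 (FDR = 7.2e-05), with 7.57, 16.9 and 65.5 CPM against 12.5, 18.7, 19.7 and 6.06 CPM. For each of these genes the mice came in nearly the order of the index, LPS_PLX_4 lowest and LPS_CD_3 highest. Serping1, the C1 inhibitor, rose by 0.62 ± 0.06 and Clu, the secreted chaperone clusterin, by 0.25 ± 0.03 (FDR = 6.17e-05 and 0.000428).

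Of the 33 tested genes of the acute-phase and NF-kB list, 17 rose with the index at FDR under 0.05 and none fell, the index genes among them. The median slope was 0.40, against 0.00 over all genes. At FDR under 0.05, 0.927% of all genes rose and 0.469% fell, the shares to set beside the list counts here. Next to the index genes these were C3, Cp, Lrg1, Steap4, Ch25h, Socs3, Cebpd, Stat3, Osmr, Tnfrsf1a, Timp1, Icam1, Ifitm3 and Csf2rb2. Stat3 rose by 0.34 ± 0.06 (FDR = 0.0105), Socs3 by 0.50 ± 0.10 (FDR = 0.0169) and Csf2rb2, a cytokine receptor beta subunit, by 1.07 ± 0.14 (FDR = 0.000705). Tnfaip3, the NF-kB inhibitor A20 and the list member with most counts, stood at 258 to 436 CPM and did not pass (slope -0.14, FDR = 0.0786). In the complement list 8 of 17 genes rose, among them C1qa, C1qc, C1ra, C3, C4b, Serping1 and Cd93, with a median slope of 0.26. C1qb, the partner of C1qa and C1qc in C1q, did not pass (slope 0.19, FDR = 0.223). Among 34 interferon-stimulated genes 4 rose, Irf7, Usp18, H2-K1 and H2-D1, and Irf7, a master regulator of type I interferon, rose by 0.51 (FDR = 0.00119). When single mice were left out, 5 to 18 acute-phase genes, 3 to 8 complement genes and 0 to 4 interferon-stimulated genes rose, each fewest without LPS_PLX_1. All acute-phase counts and the median slope include the 3 index genes, which define the index and so rise with it.

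Some glial and vascular genes rose with the index. In the Mueller glia and astrocyte list 6 of 20 rose, Gfap, Vim, Edn2, Fgf2, Aldh1l1 and Clu, and 1 fell. Over all genes 0.927% rose and 0.469% fell at the same FDR under 0.05. Gfap, the intermediate filament of reactive glia, rose by 0.74 (FDR = 0.00391), with 12.1, 16.8 and 81.2 CPM in LPS_CD and 7.14, 36.7, 27.0 and 11.9 CPM in LPS_PLX. The gene that fell was Rlbp1, the retinaldehyde carrier of Mueller glia, by 0.33 per unit of index (FDR = 0.00188), with 256, 177 and 92.9 CPM in LPS_CD and 202, 144, 197 and 276 CPM in LPS_PLX. Endothelial genes rose in 5 of 24 cases, Pecam1, Vwf, Cd93, Ly6c1 and Ly6a, while Kdr, the receptor of vascular endothelial growth factor, fell by 0.17 (FDR = 0.0294). In the fibroblast and leptomeningeal list 5 of 21 rose, Fmod, Mgp, Slc13a4, Slc6a13 and Ptgds. These counts depended on single mice: 2 to 6 glial genes, 1 to 7 endothelial genes (1 without LPS_CD_1, LPS_PLX_1 or LPS_PLX_2) and 0 to 8 fibroblast genes (0 without LPS_PLX_1 or LPS_PLX_4) rose when 1 mouse was left out.

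Photoreceptor genes were among those that fell. In the rod list 4 of 16 fell and none rose, Gnat1, Pde6g, Rcvrn and Gngt1, and the median slope was -0.08. Over all genes 0.469% fell and 0.927% rose at the same FDR under 0.05. Gngt1, the gamma subunit of rod transducin, fell by 0.28 (FDR = 0.00745), with 334, 230 and 138 CPM in LPS_CD and 329, 209, 296 and 360 CPM in LPS_PLX. In the cone list 3 of 14 fell, Arr3, Pde6h and Gngt2. Without LPS_CD_1, LPS_PLX_1 or LPS_PLX_2 no rod gene passed, and up to 5 did without another mouse, while 0 (without LPS_PLX_1) to 3 cone genes passed. Arr3, cone arrestin, fell by 0.28 ± 0.04 (FDR = 0.00145), with 177, 117 and 89.2 CPM in LPS_CD, 175, 120, 171 and 245 CPM in LPS_PLX, and 250 to 282 CPM without LPS. All challenged mice thus had less Arr3 than any unchallenged mouse, and the least stood in LPS_CD_3. The other falling genes of smallest p were Gm11961, Rabgef1, Rncr4, Gas7, Chst3, Nxnl1, Pitpnm2os2, Fndc1 and Lrit2. Nxnl1, which encodes the rod-derived cone viability factor, fell by 0.37 ± 0.05 (FDR = 0.00142), Gas7, a cytoskeletal adaptor, by 0.37 ± 0.05 (FDR = 0.00119) and Rabgef1, an activator of the endosomal GTPase Rab5, by 0.41 ± 0.05 (FDR = 0.000229).

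**Figure D3:**
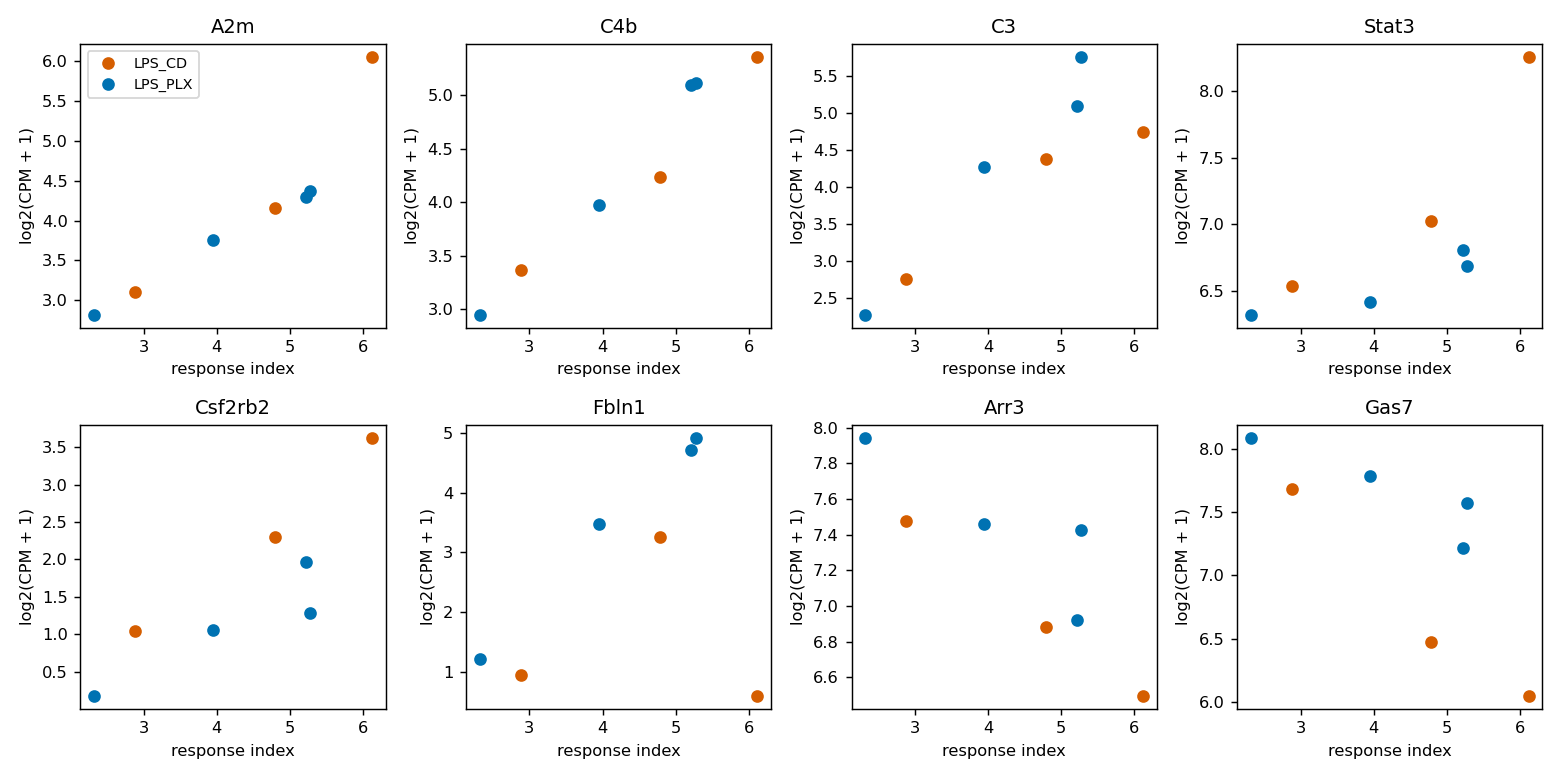
log2(CPM + 1) of 8 genes (y axis) against the response index (x axis) in the 7 challenged mice, orange for LPS_CD and blue for LPS_PLX. A2m and C4b follow the index in both groups, Arr3 and Gas7 go down with it, and Fbln1 is high in LPS_PLX_1 to LPS_PLX_3 and low in LPS_CD_3 at an index of 6.12.

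At equal response index, LPS_PLX against LPS_CD again gave no DEG and no gene at FDR under 0.05. The smallest FDR was 0.194, and 2171 genes (8.86%) had an unadjusted p under 0.05, 1216 higher (4.96%) and 955 lower (3.9%). DESeq2 called 2 genes and edgeR's likelihood ratio test 52 at FDR under 0.05. Without LPS_CD_1 there were 367 genes (1.39%), 231 higher (0.876%) and 136 lower (0.516%), and 338 of these were among the 843 genes of the fit without the index. Without LPS_CD_2 there were 23 genes, and leaving out any of the other 5 mice gave 0. Before adjustment, genes with a p under 0.05 ranged from 1377 of 23844 without LPS_PLX_3 to 3210 of 26366 without LPS_CD_1. The genes of smallest p were Drd4, Plk5, Fabp4, Il20rb, Gpr62, Slc25a28, Gm12689, Gtf2ird2, Pimreg and Plekhb1 on the lower side and Gas7, Ltbp2, Ube4bos1, Ccn4, Rabgef1, 5930430L01Rik, Katnal2, Cldn2, Ano2 and Rgs20 on the higher side, with FDR from 0.194 to 0.299. Cldn2 was counted in 1 of 3 LPS_CD mice and passed the detection filter only through LPS_PLX, so its place here says nothing.

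These genes were chosen by their p, so their values before and after the index are a description. Drd4 went from -0.71 ± 0.15 to -0.61 ± 0.10, Plk5 from -0.69 ± 0.15 to -0.60 ± 0.12 and Gpr62 from -0.43 ± 0.09 to -0.42 ± 0.09, in log2 units before and after the index. On the higher side, Rgs20 kept 0.41 ± 0.09. Gas7 stood at 204, 87.9 and 65.2 CPM in LPS_CD and at 219, 148, 189 and 270 CPM in LPS_PLX, with 0.80 ± 0.30 before and 0.77 ± 0.13 after. Ltbp2, a matrix protein that binds fibrillin, had 0.930, 1.43 and 0.384 CPM in LPS_CD and 3.10, 7.64, 7.39 and 0.791 CPM in LPS_PLX, and LPS_PLX_4 was the LPS_PLX mouse that overlapped with LPS_CD. Il20rb, a cytokine receptor subunit, was highest in LPS_CD_3 at 8.18 CPM and stood at 0.135 to 0.790 CPM in LPS_PLX.

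Genes of homeostatic microglia were lower in LPS_PLX by summed level. Their summed level over 30 genes was 179, 186 and 196 CPM in LPS_CD and 155, 134, 168 and 108 CPM in LPS_PLX, without overlap. The unchallenged mice had 94.2 and 95.2 CPM in CD and 79.5 to 88.3 CPM in RP2M. Scaled by library total alone, retinas after 14 days of PLX5622 had 27.6 to 40.2 CPM. On that scale the 5 CD mice of the series had 88.8 to 114 CPM. LPS_PLX_4 at 108 CPM thus lay within the range of all CD mice but above the CD mice with its title suffix. The other challenged mice lay above that range. The summed Mueller glia and astrocyte level did not overlap either, with 4570 to 4780 CPM in LPS_CD, 4820 to 4960 CPM in LPS_PLX and 4220 to 4390 CPM without LPS. In whole retina, fewer microglia and less RNA per microglial cell cannot be told apart.

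Over the 30 genes the median log2 fold change was -0.48 without and -0.50 with the index, against 0.01 over all genes in both fits. The levels of 27 of the 30 were lower in LPS_PLX in both fits, 7 of them at an unadjusted p under 0.05 in both (Cd33, C1qb, Laptm5, Ctss, C1qc, C1qa and Siglech), and none passed the FDR. Over all genes, 4.06% without and 3.9% with the index were lower at that threshold. Fcrls was higher at equal index (unadjusted p = 0.0423). The count of lower genes was 3 to 9 without and 6 to 11 with the index when single mice were left out. The median was between -0.69 and -0.23 when single mice were left out, weakest without LPS_CD_1. Laptm5, a lysosomal membrane protein of leukocytes (chr4:130913125-130936141), had 9.43, 10.8 and 11.5 CPM in LPS_CD and 6.73, 6.32, 8.69 and 5.80 CPM in LPS_PLX, with a log2 fold change of -0.58 ± 0.17 at equal index (unadjusted p = 0.0028, FDR = 0.346). Cd33, an inhibitory receptor for sialic acids (chr7:43524216-43544428), had 2.92, 3.13 and 4.86 CPM in LPS_CD and 2.56, 0.922, 1.56 and 0.791 CPM in LPS_PLX (-1.23 ± 0.35, unadjusted p = 0.00266, FDR = 0.346). For either gene the groups did not overlap.

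C1qa, C1qb and C1qc encode the chains of C1q, which starts the classical complement pathway and in neural tissue is made mainly by microglia. The genes lie side by side on chromosome 4 (chr4:136895917-136898803, chr4:136880129-136886187 and chr4:136889804-136893065). C1qb had 10.4, 12 and 15.9 CPM in LPS_CD and 9.16, 7.24, 9.08 and 5.27 CPM in LPS_PLX, without overlap, while C1qa and C1qc overlapped (10.1 to 19 against 5.93 to 11.7 CPM and 10.1 to 22.4 against 3.95 to 12.5 CPM). At equal index the log2 fold change was -0.47 ± 0.16 for C1qa (unadjusted p = 0.00686), -0.65 ± 0.17 for C1qb (unadjusted p = 0.00123) and -0.69 ± 0.16 for C1qc (unadjusted p = 0.000386), with FDR from 0.299 to 0.395. Without LPS_CD_1, C1qb passed in the fit without the index (-0.86 ± 0.21, FDR = 0.0382) but not at equal index (FDR = 0.203). Unchallenged mice had 2.45 to 5.57 CPM of C1qa, 1.62 to 2.90 CPM of C1qb and 2.11 to 3.98 CPM of C1qc. Every LPS_PLX mouse stood above these ranges except LPS_PLX_4 for C1qc, at 3.95 CPM. C1qa and C1qc also rose with the index, and LPS_PLX_4 had the lowest value of each C1q gene.

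**Figure D4:**
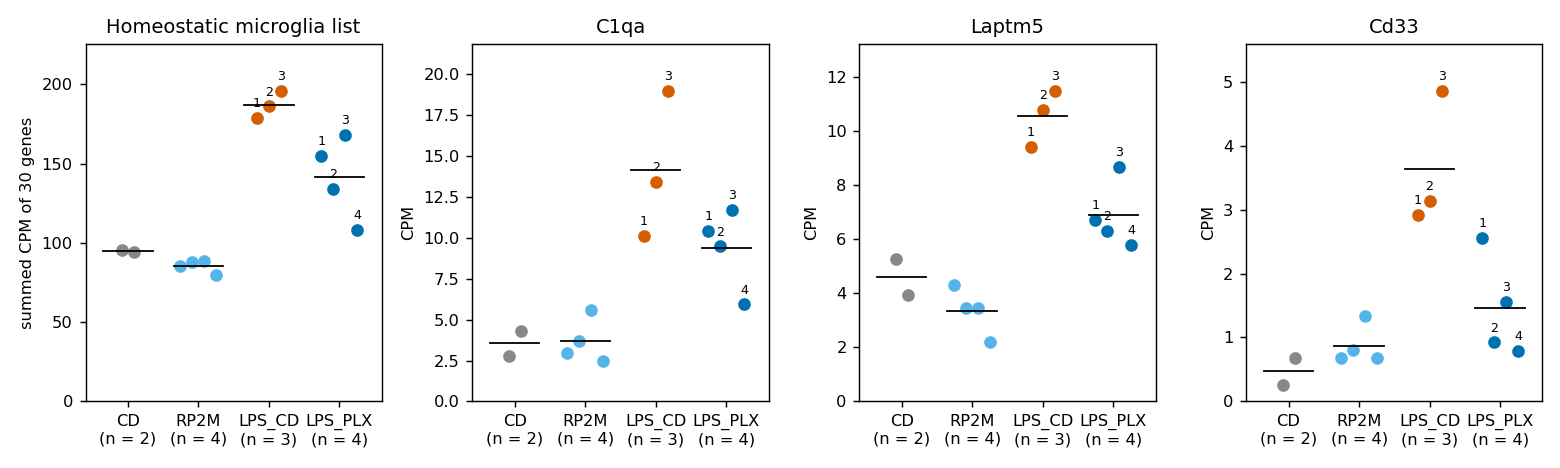
Summed CPM of 30 homeostatic microglia genes and CPM of C1qa, Laptm5 and Cd33, 1 point per mouse with the replicate number beside challenged mice and a line at the group mean. The summed level is 179 to 196 CPM in LPS_CD and 108 to 168 CPM in LPS_PLX, and all unchallenged mice shown lie below 96 CPM.

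Several other microglial genes did not reach an unadjusted p under 0.05 in the fit without the index. Csf1r, the receptor that PLX5622 blocks, had 27.2, 27.2 and 25.2 CPM against 24.8, 22.4, 23.6 and 19.1 CPM (-0.24, unadjusted p = 0.0567), without overlap. Of the genes the study names for microglia, Cx3cr1, the fractalkine receptor, had 9.43, 6.13 and 2.30 CPM in LPS_CD and 2.77 to 5.58 CPM in LPS_PLX (-0.49 ± 0.37, unadjusted p = 0.213). Sall1, a transcription factor of microglial identity, had -0.47 ± 0.35 (unadjusted p = 0.201), Tmem119 -0.46 ± 0.51 (unadjusted p = 0.381), Itgam -1.21 ± 0.62 (unadjusted p = 0.0712) and Trem2 -0.10 ± 0.40 (unadjusted p = 0.799). Cx3cr1, Sall1 and Tmem119 were lowest within LPS_CD in LPS_CD_3, the mouse with the highest index and the highest summed microglial level. Fcrls, an Fc receptor-like marker of resident microglia, was near the floor, with 0.930, 0.130 and 0 CPM in LPS_CD and 0.790 to 1.19 CPM in LPS_PLX. Its call in the fit without LPS_CD_1, higher in LPS_PLX, rests on LPS_CD mice at 0.130 and 0 CPM. These values are under the floor, so that call says nothing.

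Among 29 tested genes of activated microglia the median log2 fold change was -0.08 at equal index. Leaving out Itgax, which entered the test only through LPS_PLX, 1 was higher and 3 lower at an unadjusted p under 0.05. The shares over all genes were 4.96% higher and 3.9% lower. Fcgr2b and Fcgr3, receptors for immunoglobulin G, were lower. Fcgr3 had 2.66, 3.65 and 5.37 CPM in LPS_CD and 1.62, 1.45, 3.24 and 1.05 CPM in LPS_PLX (-0.92 ± 0.30 at equal index, unadjusted p = 0.0062), and Fcgr2b had 1.46, 1.83 and 3.71 CPM against 0.132 to 1.32 CPM (-1.32 ± 0.39, unadjusted p = 0.00361). Axl, a receptor tyrosine kinase for dying cells, had 28.3, 31.0 and 47.9 CPM against 22.6 to 33.8 CPM (-0.27, unadjusted p = 0.0351). Lyz2 (lysozyme of myeloid cells) went the other way, with 2.13, 3.39 and 7.67 CPM in LPS_CD and 4.58, 8.69, 9.08 and 7.91 CPM in LPS_PLX (0.96 ± 0.29 at equal index, unadjusted p = 0.00379, FDR = 0.362). Itgax was at 0 in all LPS_CD mice and at 0.132 to 0.389 CPM in LPS_PLX, at or under the floor. The most abundant members, Apoe, Ctsb and Ctsd, overlapped between the groups, with log2 fold changes of 0.13, 0.02 and -0.01.

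Markers of border macrophages and monocytes were few in reads. Mrc1, the mannose receptor of perivascular macrophages, had 0, 0.391 and 0 CPM in LPS_CD and 0.404, 0.659, 1.04 and 0.659 CPM in LPS_PLX, and H2-Aa, a class II antigen presentation gene, had 0, 0.130 and 0 against 0.942, 0.263, 0.130 and 0.659 CPM. Both genes passed the detection filter only through LPS_PLX, so no test of them is given. The whole list of 22 genes summed to 93.9 to 140 CPM in LPS_CD and 102 to 138 CPM in LPS_PLX. None of the 15 genes that entered the test through both groups had an unadjusted p under 0.05. Neutrophil genes summed to 20.1 to 27.4 CPM in LPS_CD and 18.3 to 36.6 CPM in LPS_PLX, and none of the 10 tested had a p under 0.05.

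Genes of fibroblasts and leptomeninges leaned to the LPS_PLX side. Of 19 genes that entered the test through both groups, 5 were higher in LPS_PLX at an unadjusted p under 0.05 without the index and 10 with it (Fbln1, Ogn, Penk, Slc6a13, Slc13a4, Fmod, Islr, Dcn, Col3a1 and Ptgds), and none was lower, against 4% and 4.96% higher over all genes. Over the 21 tested genes the median log2 fold change was 0.56 without and 0.50 with the index. Without LPS_PLX_2, 2 of the 21 were higher and 1 lower in the fit without the index, with a median of 0.25, without LPS_PLX_3 also 2 were higher and without LPS_PLX_4 10 were. At equal index 5 (without LPS_CD_3) to 11 were higher, and 1 was lower without LPS_PLX_2. Fbln1, the matrix protein fibulin 1 (chr15:85205949-85286535), had 0.930, 8.60 and 0.511 CPM in LPS_CD and 10.1, 25.2, 29.1 and 1.32 CPM in LPS_PLX (2.46 ± 0.57 at equal index, unadjusted p = 0.000422, FDR = 0.299). Penk, which encodes the precursor of enkephalins, had 5.31, 17.2 and 4.47 CPM against 13.3, 37.4, 33.6 and 4.48 CPM (1.34 ± 0.40, unadjusted p = 0.00373). Slc13a4, a sulfate transporter of meningeal cells, had 0.797, 4.82 and 3.84 CPM against 5.65, 12.2, 7.52 and 1.58 CPM (1.39 ± 0.32, unadjusted p = 0.000356). In each of these genes LPS_PLX_4, the weakest responder, lay among the LPS_CD mice, and LPS_CD_2 was the highest LPS_CD mouse.

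Cldn2, a claudin of leaky epithelia, was counted in LPS_CD_2 (0.913 CPM) and in LPS_PLX_1 to LPS_PLX_3 (2.29, 4.21 and 4.41 CPM) and stood at 0 in the other 3 challenged mice. It entered the test only through LPS_PLX. The counts over 19 genes above leave it out, while the medians and the leave-out counts over the 21 tested genes include it. Fbln1 and Penk without LPS were at 0.929 to 2.12 and 4.09 to 5.17 CPM, the level of LPS_PLX_4, LPS_CD_1 and LPS_CD_3. The summed level of the list was 294 to 360 CPM in LPS_CD, 257 to 456 CPM in LPS_PLX and 202 to 219 CPM without LPS. Pigment epithelium and melanocyte genes, which mark tissue next to the retina, summed to 21.4, 21.5 and 43.2 CPM in LPS_CD and to 25.8, 27.9, 50.6 and 24.5 CPM in LPS_PLX, and lens genes to at most 3.58 CPM. Their part in the fibroblast values was not tested.

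The acute-phase branch did not differ evenly. At equal index, 6 of the 32 genes that entered the test through both groups were lower (Stat3, Csf2rb2, Nfkbiz, Bcl3, Nfkbia and Socs3) and 3 higher (C3, Steap4 and Vcam1) at an unadjusted p under 0.05. The shares over all genes were 3.9% lower and 4.96% higher. The 3 index genes count among the 32 and in the median below, and the fit itself holds their difference at equal index near 0. Over the 33 tested genes the median was -0.10, with -0.23 to 0.05 when single mice were left out (above 0 without LPS_CD_1), and none passed the FDR. The count of lower genes was then 3 to 8. Stat3 (chr11:100885098-100939540) had 92.1, 129 and 305 CPM in LPS_CD and 84.5, 111, 102 and 79.0 CPM in LPS_PLX (-0.62 ± 0.17, unadjusted p = 0.00152, FDR = 0.318). Csf2rb2 had 1.06, 3.91 and 11.3 CPM against 1.08, 2.90, 1.43 and 0.132 CPM (-1.37 ± 0.32, unadjusted p = 0.000459). LPS_CD_2 had more of both than LPS_PLX_2 and LPS_PLX_3, although its index was lower. Nfkbia and Nfkbiz, inhibitors of NF-kB that NF-kB itself induces, had -0.33 ± 0.14 (unadjusted p = 0.0334) and -0.34 ± 0.12 (unadjusted p = 0.0129), and Nfkbiz did not overlap between the groups.

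C3, the central complement component (chr17:57203970-57228136), was the opposite case. It had 5.71, 19.8 and 25.8 CPM in LPS_CD and 18.3, 33.1, 53.3 and 3.82 CPM in LPS_PLX, against 0.675 to 2.64 CPM without LPS. The groups overlapped and the plain difference was 0.66 ± 0.58 (unadjusted p = 0.274), while at equal index it was 0.96 ± 0.22 (unadjusted p = 0.000399, FDR = 0.299). C4b had 0.31 at equal index (unadjusted p = 0.0328). Without LPS_CD_1, C3 at equal index had 1.08 ± 0.23 (FDR = 0.0181), a call that rests on leaving out that mouse. Of the 17 tested complement genes, 2 were thus higher and 3, the C1q genes, lower at equal index at an unadjusted p under 0.05. The median was 0.16. Over all genes 4.96% were higher and 3.9% lower.

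Genes induced by glucocorticoids and metallothioneins were lower in LPS_PLX in 7 of 16 cases at an unadjusted p under 0.05 in both fits (Mt1, Mt2, Per1, Dusp1, Zbtb16, Cdkn1a and Nfkbia), with none higher and a median of -0.34 without and -0.18 with the index. Over all genes 4.06% and 3.9% were lower. The count without the index was 1 without LPS_CD_3 (median -0.13), 2 without LPS_PLX_4, 3 without LPS_PLX_3 and 10 without LPS_CD_1. Over all genes, in both directions together, 911 of 26186 had a p under 0.05 without LPS_CD_3. Without LPS_CD_1 it was 4160 of 26366, so the list count moved along with all genes. At equal index the list count was 3 (without LPS_PLX_3) to 7. Mt1 (chr8:94179082-94180327) had 40.9, 77.0 and 116 CPM in LPS_CD, 43.6, 58.6, 40.5 and 34.0 CPM in LPS_PLX and 18.9 to 30.6 CPM without LPS. Mt2 (chr8:94172664-94173568) had 20.6, 29.7 and 71.7 CPM against 22.5, 27.4, 20.8 and 14.4 CPM, and 5.67 to 12.3 CPM without LPS. These genes encode small proteins that bind zinc and copper. LPS_CD_1 lay within the LPS_PLX range for both and LPS_CD_2 and LPS_CD_3 above it. At equal index the log2 fold change was -0.61 ± 0.14 for Mt1 (unadjusted p = 0.000461) and -0.66 ± 0.18 for Mt2 (unadjusted p = 0.0016). In the fit without LPS_CD_1 and without the index, 4 of the 16 genes passed, all lower. Mt1 also passed at equal index without LPS_CD_1 (-0.85 ± 0.15, FDR = 0.00351).

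The bases before Mt1 (chr8:94178839-94179081) and Mt2 (chr8:94172368-94172617), both on the plus strand, are shown because the genes lie next to each other and moved in parallel over the 7 mice. Capitals mark the letters TGCACNC or TGCGCNC of the metal response element on either strand.
Mt1: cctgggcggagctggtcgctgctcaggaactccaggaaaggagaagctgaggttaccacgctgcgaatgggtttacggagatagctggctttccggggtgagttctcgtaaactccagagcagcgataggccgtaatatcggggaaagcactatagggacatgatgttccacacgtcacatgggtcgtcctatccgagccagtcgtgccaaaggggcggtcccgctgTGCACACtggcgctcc
Mt2: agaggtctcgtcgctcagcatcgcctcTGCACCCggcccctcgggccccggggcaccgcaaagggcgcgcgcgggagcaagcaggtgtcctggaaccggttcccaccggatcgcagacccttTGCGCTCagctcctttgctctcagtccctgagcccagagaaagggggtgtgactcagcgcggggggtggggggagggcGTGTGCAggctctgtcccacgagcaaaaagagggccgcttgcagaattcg
The letters occurred once before Mt1 and at 3 places before Mt2, and 21.4% of all windows of 250 bases held at least 1. The Mt1 stretch was cut at the GENCODE start and holds 243 bases. The Mt2 stretch ends at the RefSeq start, some bases before the GENCODE start. Bases outside the stretches shown were not searched, so these are not counts of all such elements of either gene.

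Per1, a clock gene induced by glucocorticoids, had 218, 254 and 331 CPM in LPS_CD and 195 to 235 CPM in LPS_PLX (-0.27 ± 0.09 at equal index, unadjusted p = 0.00974), and Dusp1, a phosphatase of MAP kinases, had 26.6 to 33.6 CPM against 23.4 to 26.5 CPM (-0.34 ± 0.12, unadjusted p = 0.00807). Sgk1, with the most counts of the list, overlapped at 358 to 391 and 352 to 401 CPM. Immediate early genes, which respond within minutes to many stimuli including handling, were lower at equal index, at the same threshold, in 5 of 16 cases (Jun, Junb, Ier2, Ier3 and Btg2) and higher in none, leaving out Egr2, which entered the test only through LPS_CD. With Egr2 among them, 2 (without LPS_CD_3) to 6 were lower when single mice were left out. The share lower over all genes was 3.9% with all mice. Ier3 had 49.5, 54.5 and 52.0 CPM in LPS_CD and 40.4 to 44.9 CPM in LPS_PLX (-0.28, unadjusted p = 0.00609) without overlap. Junb had 31.6, 35.1 and 63.7 CPM against 25.6, 35.8, 32.0 and 24.8 CPM (-0.43 ± 0.13, unadjusted p = 0.00436). Dusp1 in unchallenged mice spanned 21.9 to 44.2 CPM, wider than in both challenged groups together.

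**Figure D5:**
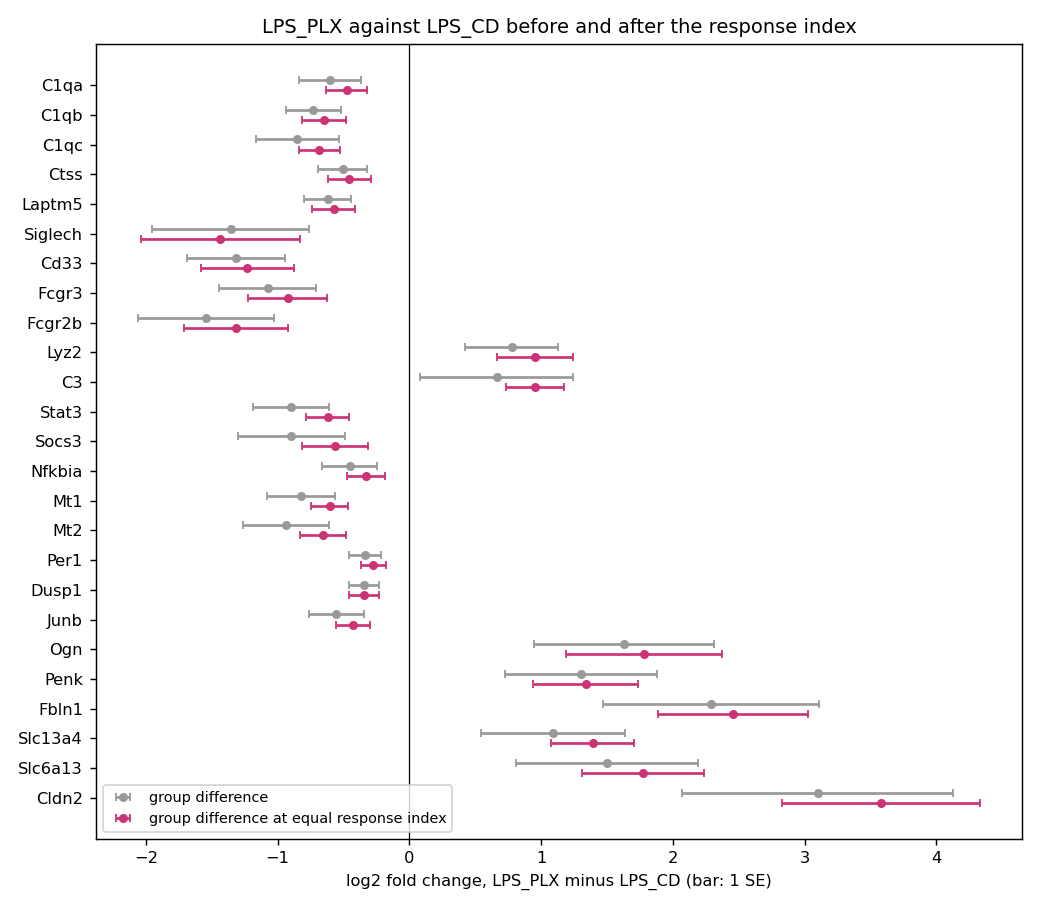
log2 fold change of LPS_PLX against LPS_CD with 1 SE for 25 genes, in grey without and in pink with the response index in the fit. C1qb goes from -0.73 to -0.65 and Stat3 from -0.90 to -0.62 with the index, while C3 goes from 0.66 to 0.96, and no gene passes the FDR in either fit. Cldn2 entered the test only through LPS_PLX, so its place in the figure says nothing.

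At an unadjusted p under 0.05, interferon-stimulated genes were higher at equal index in 4 of 33 cases (Oasl2, Samhd1, Usp18 and Ifi44) and lower in 2 (Irf7 and Tap1), against 4.96% and 3.9% over all genes, leaving out Ifi27l2a, which entered the test only through LPS_PLX. Over all 34 the median was 0.14, and 2 to 6 were higher when single mice were left out. Oasl2, an oligoadenylate synthetase-like protein, had 13.7, 14.7 and 14.7 CPM in LPS_CD and 19.9, 20.2, 32.4 and 13.7 CPM in LPS_PLX (0.64 ± 0.17, unadjusted p = 0.00195). Samhd1, a nucleotide hydrolase that restricts viruses, had 55.9, 41.1 and 41.5 CPM against 54.1 to 59.6 CPM (0.27 ± 0.09, unadjusted p = 0.011), and LPS_CD_1 lay with LPS_PLX and the unchallenged mice, at 52.9 to 59.9 CPM. Tap1, the peptide transporter for class I antigens, had 5.98, 5.08 and 9.84 CPM against 3.30 to 5.84 CPM (-0.55 ± 0.22, unadjusted p = 0.0216). Of 22 tested cytokines and chemokines none had a p under 0.05 at equal index. Cx3cl1, the neuronal ligand of Cx3cr1, had 98.6 to 131 CPM and 122 to 133 CPM.

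Other cell types gave few genes at this threshold, at which 4.96% of all genes were higher and 3.9% lower at equal index. Among 20 genes of Mueller glia and astrocytes, Glul and Slc1a3, which clear glutamate, were higher at equal index (0.21 for each, unadjusted p = 0.0241 and 0.0176), and the growth factor Fgf2 and the peptide Edn2 lower (-0.39 and -0.60, unadjusted p = 0.035 and 0.0372). Rgs5 and Cspg4, markers of pericytes, were higher among 10 mural genes (0.26 and 0.49, unadjusted p = 0.0153 and 0.0402), and Cspg4 did not overlap between the groups. Of 14 pigment cell genes Lrat, Tyrp1 and Dct were higher, with the most in LPS_PLX_3 at 1.69, 1.56 and 5.71 CPM. None of 24 endothelial genes had an unadjusted p under 0.05 at equal index, and of 20 cell cycle genes only Ccna2, cyclin A2, did (0.26, unadjusted p = 0.0375).

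Neuronal genes differed by smaller amounts. Of the 16 rod genes 3 were higher in LPS_PLX at equal index at an unadjusted p under 0.05 (Gnat1, Pde6a and Gngt1) and none lower, with a median of 0.05. The shares over all genes were 4.96% higher and 3.9% lower. Pde6a, a subunit of the rod phosphodiesterase, had 2990, 2370 and 2380 CPM in LPS_CD and 2930 to 3620 CPM in LPS_PLX (0.27, unadjusted p = 0.00544). Cone genes gave 2 of 14 (Arr3 and Cngb3). Arr3 had 0.38 ± 0.10 at equal index (unadjusted p = 0.00158, FDR = 0.318). Among 25 genes of inner retinal neurons 3 were higher (Nefl, Slc17a6 and Grm6) and Trpm1 lower. Grm6, the glutamate receptor of ON bipolar cells, had 222, 126 and 112 CPM in LPS_CD and 161 to 230 CPM in LPS_PLX, and without LPS_CD_1 it passed with 0.58 ± 0.11 at equal index (FDR = 0.00795).

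Without LPS, RP2M against CD gave no DEG and no gene at FDR under 0.05 among 27025 tested in edgeR, while 505 genes (1.87%) passed 0.05 before adjustment, 0.936% higher and 0.932% lower in RP2M, and the smallest FDR was 1. DESeq2 and the likelihood ratio test called 0 genes too. The contrast of the difference between the LPS effects, (LPS_PLX minus RP2M) minus (LPS_CD minus CD), gave no gene at FDR under 0.05 either (smallest FDR 0.493), and 1522 genes (5.63%) passed 0.05 before adjustment, 2.82% higher and 2.81% lower. It uses the same challenged mice as the direct comparison. In this contrast Drd4 had -0.71 (unadjusted p = 0.000225), Plk5 -0.61 (unadjusted p = 0.000934), Glp2r -2.17 (unadjusted p = 5.48e-05), Cd33 -2.19 (unadjusted p = 0.00412), Stat3 -0.89 (unadjusted p = 0.00753) and C1qb -0.56 (unadjusted p = 0.167). Without LPS_CD_1 the contrast called 977 genes at FDR under 0.05, against 14 without LPS_CD_2, 36 without LPS_CD_3 and 0 without any of the other mice.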

How the data were processed

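Retinal RNA was sequenced by the authors on a BGISEQ-500 (single end, 50 bp). Per the labels, poly-A RNA was selected, and reads were processed with HISAT2, HTSeq and StringTie on mm10. The deposited values are raw HTSeq counts from the authors, not normalized. The deposited FPKM values, made by the authors with StringTie, were used only for an alternative index. Symbols were matched for 50376 of 50686 identifiers, and coordinates are GENCODE M21 on GRCm38.

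Groups were taken from sample descriptions, and each mouse is a replicate. Counts were tested with edgeR 4.0.16 (R 4.3.3): TMM sizes, quasi-likelihood F test, and genes detected (count 1 or more) in at least 0.5 of the mice of either group. FDR is Benjamini-Hochberg, and the SE is the fold change divided by the root of F. The index used log2(CPM + 1) with a pseudocount of 1, entered centred as a covariate. Unchallenged mice entered a fit of 4 groups and 13 mice. The study's methods name an additive batch model whose batches the text does not define, so no batch term was fitted. The scripts were tested on simulated data.

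Named are the index genes, genes the study's text names, the 10 genes of smallest p per direction, and list members with the highest CPM or an unadjusted p under 0.05. Not every such member is given with values. Some genes are not reported here. The members and lists were chosen with earlier results of these data known. Alternatives were DESeq2 1.42.0, the likelihood ratio test, RLE, other gene filters, other indices, the title number series, the replicate block and leaving out each mouse. Promoter sequences are from RefSeq (GRCm38.p6). Figures were drawn with matplotlib 3.10.9. Members detected in fewer than 50% of the mice of 1 challenged group entered the test only through the other group. With all mice, counts for the acute-phase, activated microglia, macrophage, fibroblast, immediate early and interferon lists in LPS_PLX against LPS_CD leave them out. Medians, summed levels and counts with single mice left out include them.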

Additional observations from a re-analysis of the deposited data

Results flagged for a closer look

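The response index differed between LPS_PLX and LPS_CD by -2.32 among mice whose title numbers begin with 0 and by 2.36 among those whose numbers begin with 1. Every LPS_PLX mouse lay below the LPS_CD mice in the former and above the LPS_CD mouse in the latter, and the difference between the series was not tested for the index.

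Within LPS_PLX, 98 sets of 4 values were searched for a mouse far from the other 3 by Dixon's criterion, which chance meets in about 1 in 20, and 5 were found. LPS_PLX_3 had a summed level of pigment epithelium and melanocyte genes of 50.6 CPM, against 24.5 to 27.9 CPM in the other LPS_PLX mice. LPS_PLX_2 had 451 CPM summed over the immediate early genes, against 384 to 391 CPM, and 17 CPM of Cdkn1a, the cell cycle inhibitor p21, against 2.77 to 4.85 CPM. Dusp1 was at 26.5 CPM in LPS_PLX_1, against 23.4 to 23.7 CPM. Itgax was at 0.389 CPM in LPS_PLX_3, at the level of the floor.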

How the results depend on the processing

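LPS_PLX against LPS_CD called 0 genes at FDR under 0.05 with the likelihood ratio test, DESeq2, RLE, filterByExpr and the title number series as a covariate. Without a gene filter it called 11, 1 of them a DEG, and in one fit with RP2M and CD 21, 1 of them a DEG. At equal index the likelihood ratio test gave 52 genes (5 DEGs), DESeq2 2, no gene filter 255 (27 DEGs), an index from Lcn2 alone 3 and the title number series as a covariate 2. The slope on the index gave 670 genes and 19 DEGs with the likelihood ratio test, 4 DEGs with DESeq2, 3 with filterByExpr and 67 with an index from the acute-phase and NF-kB list. The group by number series interaction gave 664 genes and 222 DEGs with the likelihood ratio test, and 144 genes and 2 DEGs with filterByExpr. The cause of these shifts was not tested.

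When single mice were left out, LPS_PLX against LPS_CD gave 0 to 843 genes and 0 to 86 DEGs, at equal index 0 to 367 and 0 to 45, the slope 20 to 613 and 2 to 15, the interaction 0 to 1 genes (LPS_CD_1, the single LPS_CD mouse of its series, could not be left out), RP2M against CD 0 to 12 and 0 to 3, and the difference of LPS effects 0 to 977 and 0 to 158. The 843, 367 and 977 were without LPS_CD_1. The log2 fold change without single mice ranged from -0.82 to 0.24 for Saa3, -0.95 to 0.52 for Lcn2, -1.44 to 0.71 for Serpina3n (each highest without LPS_CD_3), -0.87 to 0.0056 for Cx3cr1 and -0.40 to 0.0598 for Trem2.

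Replicate numbers did not pair the mice. Deviations of same-numbered mice correlated at 0.222, 0.0478 and 0.0284, and no LPS_CD mouse was closest to its own number. With the replicate block, 0 genes passed an FDR under 0.05 and 1285 had an unadjusted p under 0.05, against 1973 without it. Saa3, Lcn2 and Serpina3n changed sign to 0.10, 0.24 and 0.0107. Genes near the floor of 3 counts are not resolved.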
